A study of Caenorhabditis elegans with 2 samples.

Results

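Cuticle collagens are the main structural proteins of the worm's exoskeleton. The group comprised all protein-coding genes of Caenorhabditis elegans whose symbol starts with col-, together with dpy-2, dpy-3, dpy-7, dpy-8, dpy-9, dpy-10, dpy-13, rol-6, sqt-1, sqt-3, bli-1 and bli-2. This gave 168 of the 19973 nuclear protein-coding genes of the Ensembl WBcel235 annotation, 156 of them col- genes. Membership was set by symbol, and the list was chosen with earlier results of these data known.

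The data were ChIP-seq region lists for NHR-47, a nuclear hormone receptor, from 2 biological replicates of 1 group. Whole hermaphrodite L1 larvae of strain OP481 were taken 6 h past synchronization, which was by bleaching followed by starvation. All of them carried unc-119(tm4063) on chromosome III and wgIs481, a transgene for NHR-47 fused at its C-terminus to GFP-FLAG. An anti-GFP antibody was used according to one label, while another names the antibody as nhr-47. No group without the tagged protein was analysed here, and the lists come from 1 transgenic line. In whole larvae, binding in few cells and weak binding in many cells cannot be told apart. The authors' thresholded list held 5357 peaks with signal values (the caller's own score of a region) from 77.0 to 4060. Their pooled list held 30000 regions down to a signal of 14, and each replicate's list also held 30000. The submitters label the pooled list as peaks and background, so a region in it is not by itself a sign of binding. The files hold no read counts, so depth is unknown.

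Cuticle collagens are secreted by the epidermis, trimmed by proteases and cross-linked into the new cuticle. Genes of the family are transcribed in waves that repeat with each molt, and mutations in single members change body shape. The furrow collagens dpy-2, dpy-3, dpy-7, dpy-8, dpy-9 and dpy-10 build the circumferential furrows of the cuticle, while bli-1 and bli-2 belong to the struts of the adult cuticle.

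Few collagen genes had a thresholded NHR-47 summit (the position of highest signal in a peak) in their promoter window, which spans the 500 bp before the 5′ end and the 200 bp after it. Of the 168 members, 9 had one (5.36%, 95% Wilson interval 2.84 to 9.87%), against 12.8% of all protein-coding genes. The members were col-38, col-71, col-166, col-148, col-10, col-42, col-3, col-117 and col-98. None was one of the 12 members with dpy, rol, sqt or bli names. The 9 genes shared 8 distinct summits, since col-3 and col-117 lie on either side of the same one. No test was made of the list, which was chosen with earlier results of these data known, and the intervals cover counting error only.

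With the pooled list, which reaches far below the threshold, 34 members had a summit in the window (20.2%, 95% Wilson interval 14.9 to 26.9%), against 28.3% of all protein-coding genes. Of these, 25 had only summits below the threshold (14.9%), which is close to the 15.5% of all protein-coding genes. For the remaining 134 members the pooled list had no summit there. In the list of replicate 1, 31 members had a summit (18.5%) against 29.8% of all genes. In that of replicate 2, 33 members had one (19.6%) against 28.6% of all genes.

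**Figure D1:**
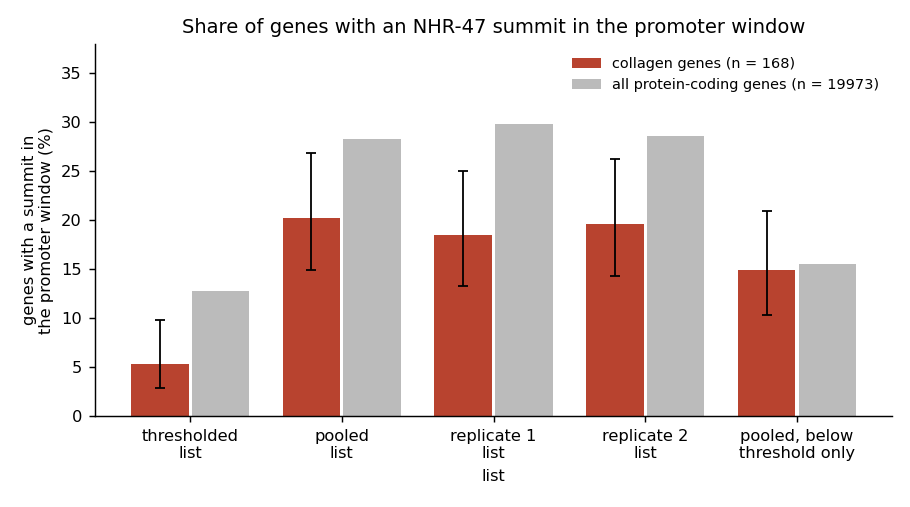
Percentage of genes with a summit in the promoter window (y axis) in each deposited list (x axis), for the 168 collagen genes (red, with 95% Wilson intervals) and all 19973 protein-coding genes (grey). In the thresholded list the shares are 5.36% and 12.8%, while those of genes with only a summit below the threshold are 14.9% and 15.5%.

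The sequences around 6 of the 8 summits follow, chosen to show the 2 strongest summits, the head-to-head pair of collagen genes, and the summits of genes without a shared window at which 1 of the motifs given next was found (col-10, col-42 and col-98). Each runs 5′ to 3′ on the strand of the first collagen gene named, over 151 bp of the RefSeq WBcel235 genome with the summit in the middle. Capitals mark AGATAA (a site of GATA factors), TATAAA (the letters of a TATA box, wherever they stand) or TTAGGC (the unit of the worm's telomere repeat), on either strand.
col-38 and rpl-5 (chrII:8569455-8569605, minus strand): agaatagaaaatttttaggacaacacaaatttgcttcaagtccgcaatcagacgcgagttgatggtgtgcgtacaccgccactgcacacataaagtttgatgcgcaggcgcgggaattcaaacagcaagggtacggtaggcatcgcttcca
col-71 and Y49F6B.2 (chrII:3502755-3502905, minus strand): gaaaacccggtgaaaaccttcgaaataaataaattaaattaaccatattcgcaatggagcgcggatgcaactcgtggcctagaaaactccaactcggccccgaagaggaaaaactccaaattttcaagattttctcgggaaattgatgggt
col-10 (chrV:9165250-9165400, minus strand): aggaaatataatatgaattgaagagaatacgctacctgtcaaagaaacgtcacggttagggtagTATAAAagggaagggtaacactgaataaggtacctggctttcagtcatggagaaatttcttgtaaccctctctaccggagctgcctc
col-42 (chrV:18637944-18638094, plus strand): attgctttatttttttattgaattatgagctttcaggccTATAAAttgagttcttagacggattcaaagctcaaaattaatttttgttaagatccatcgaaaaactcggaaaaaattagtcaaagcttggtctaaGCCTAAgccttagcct
col-3 and col-117 (chrIV:8824467-8824617, plus strand): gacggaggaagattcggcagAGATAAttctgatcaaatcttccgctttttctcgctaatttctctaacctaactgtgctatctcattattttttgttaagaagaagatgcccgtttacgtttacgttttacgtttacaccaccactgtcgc
col-98 (chrIII:13018860-13019010, plus strand): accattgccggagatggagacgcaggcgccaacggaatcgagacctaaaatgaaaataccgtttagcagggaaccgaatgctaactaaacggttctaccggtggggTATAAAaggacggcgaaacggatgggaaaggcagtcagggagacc
Within 75 bp of the 8 summits, the nuclear receptor core sites AGGTCA or likewise AAGTCA had no match, nor had GAGAGA or CACGTG, on either strand. In all 2094 promoter summits of the thresholded list they matched at 3.49%, 4.87%, 28.3% and 5.44%. With only 8 collagen summits, the lack of a match does not place them below these shares. AGATAA matched at 1 of the 8 collagen summits and at 6.4% of all promoter summits. TATAAA matched at 3 of the 8, those of col-10, col-42 and col-98, and at 10.7% of all promoter summits. Since TATAAA was chosen after these sequences had been seen, the higher share at collagen summits carries no weight. The match at col-42 is not near the 5′ end, since it lies upstream of a summit that is itself 465 bp upstream. A match is a description of letters, not evidence of a bound factor.

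The 2 strongest collagen summits lay between divergent genes, nearer to the partner than to the collagen. At col-38 the region from 8569378 to 8569678 on II had a signal of 238 in replicate 1 and 349 in replicate 2. Divided by the median thresholded peak of each replicate, these were 3.56 and 3.78, a mean of 3.67 ± 0.155 (SD, n = 2). The summit lay 442 bp upstream of col-38 and 397 bp upstream of rpl-5, which encodes a protein of the large ribosomal subunit, and 32 bp from the 5′ end of the noncoding RNA gene F54C9.17. It ranked 489 among the pooled regions.

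The region of col-71, from 3502697 to 3502972 on II, had a signal of 227 in replicate 1 and 309 in replicate 2, a relative signal of 3.37 ± 0.039 (SD, n = 2). Its summit was 260 bp upstream of col-71 and 138 bp upstream of the divergent gene Y49F6B.2. A weaker shared summit lay 477 bp upstream of col-148 and 88 bp from the 5′ end of C12D8.21. That region, from 10241066 to 10241485 on V, had a signal of 56.1 in replicate 1 and 65.6 in replicate 2, a relative signal of 0.776 ± 0.0912.

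The genes col-3 and col-117 face away from each other, with their 5′ ends 588 bp apart, and both windows held the region from 8824332 to 8824751 on IV. Its signal was 57.6 in replicate 1 and 50.8 in replicate 2, a relative signal of 0.707 ± 0.221 (SD, n = 2). The summit was 241 bp from col-3 and 347 bp from col-117. Their windows shared 605 of their 31-base words, of which 383 came from the stretch where the windows overlap, so the rest stand in both as separate copies. Over each window 66.9% of words occurred once in the genome, while all 121 words within 75 bp of the summit did.

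**Figure D2:**
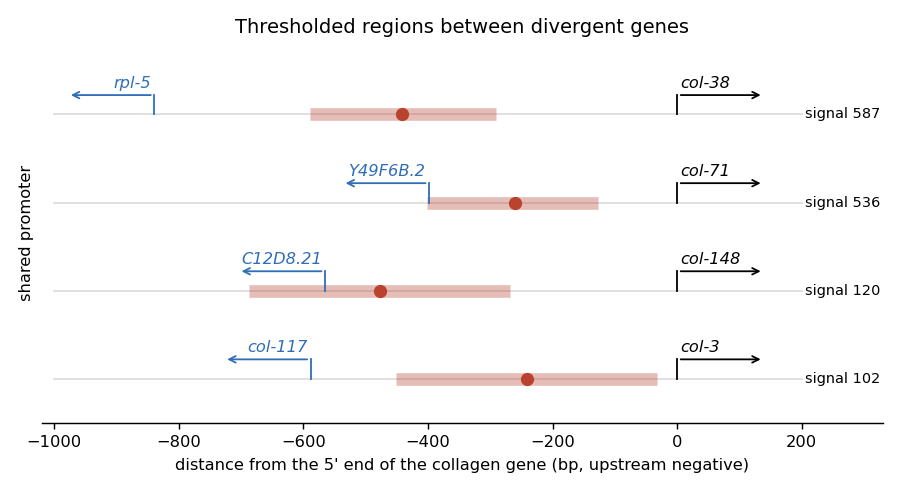
Thresholded regions (pale bars) and their summits (points) between divergent gene pairs, by distance from the 5′ end of the collagen gene (x axis, bp, upstream negative). Arrows start at the 5′ ends of the collagen gene (black) and of its partner (blue), and the pooled signal value stands on the right. The summits of col-38, col-71 and col-148 lie nearer to the partner's 5′ end than to that of the collagen.

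The other 4 genes had a summit in the window of no second protein-coding gene. The strongest was at col-166, from 6279612 to 6280031 on X, with a signal of 71.5 in replicate 1 and 85.9 in replicate 2. Its relative signal of 1.00 ± 0.0988 (SD, n = 2) equals that of a median peak, and the summit lay 194 bp upstream. Its window shared words with those of col-167, col-168, col-169 and col-170, and 86.6% of its words were unique in the genome, while all 121 near the summit were.

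The summit at col-10 lay 18 bp upstream of the 5′ end, the nearest of the 9. Its region, from 9165138 to 9165324 on V, had a signal of 52.1 in replicate 1 and 70.8 in replicate 2, a relative signal of 0.775 ± 0.00886 (SD, n = 2). The deposited summit lay 1 bp past the end of that region. A second region, with its summit at -217 bp, had a pooled signal of 74.6, below the lowest thresholded signal of 77.0. At col-98, from 13018725 to 13019144 on III, the signal was 25.5 in replicate 1 and 60.1 in replicate 2, with the summit 73 bp upstream. The relative signal was 0.517 ± 0.191, the lowest of the 9. In both sequences above, a TATAAA on the gene's strand begins within 31 bp of the summit, at 29 bp upstream of col-10 and 42 bp upstream of col-98.

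The region of col-42, from 18637809 to 18638228 on V, had a signal of 43.9 in replicate 1 and 73.6 in replicate 2, a relative signal of 0.728 ± 0.099 (SD, n = 2). Its summit lay 465 bp upstream. The sequence there held 1 match of TTAGGC, which 3.15% of all promoter summits hold within 75 bp. That motif, too, was chosen after values had been seen. Replicate 1 listed no summit in this gene's window, although a region of its list overlapped the peak.

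Of the 9 genes, 3 had a signal above 156, the median of all thresholded peaks. Over promoter summits of all protein-coding genes the median was 221, which only col-38 and col-71 exceeded. All 9 summits were upstream of the 5′ end, at a median of -260 bp, in a window that reaches further upstream than downstream. Over all gene and summit pairs of the thresholded list the median was -180 bp, and the share upstream was not counted. The relative signals of the replicates were within 2-fold of each other at all 9, and replicate 1 was higher at 6 of them. Limited to its 5357 regions of highest signal, replicate 1 alone gave 10 members (5.95%) against 13.1% of all genes. It had col-103, col-144 and col-2 but neither col-42 nor col-98. Replicate 2 alone, limited in the same way, gave the 9 members and col-147, against 12.9% of all genes.

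**Figure D3:**
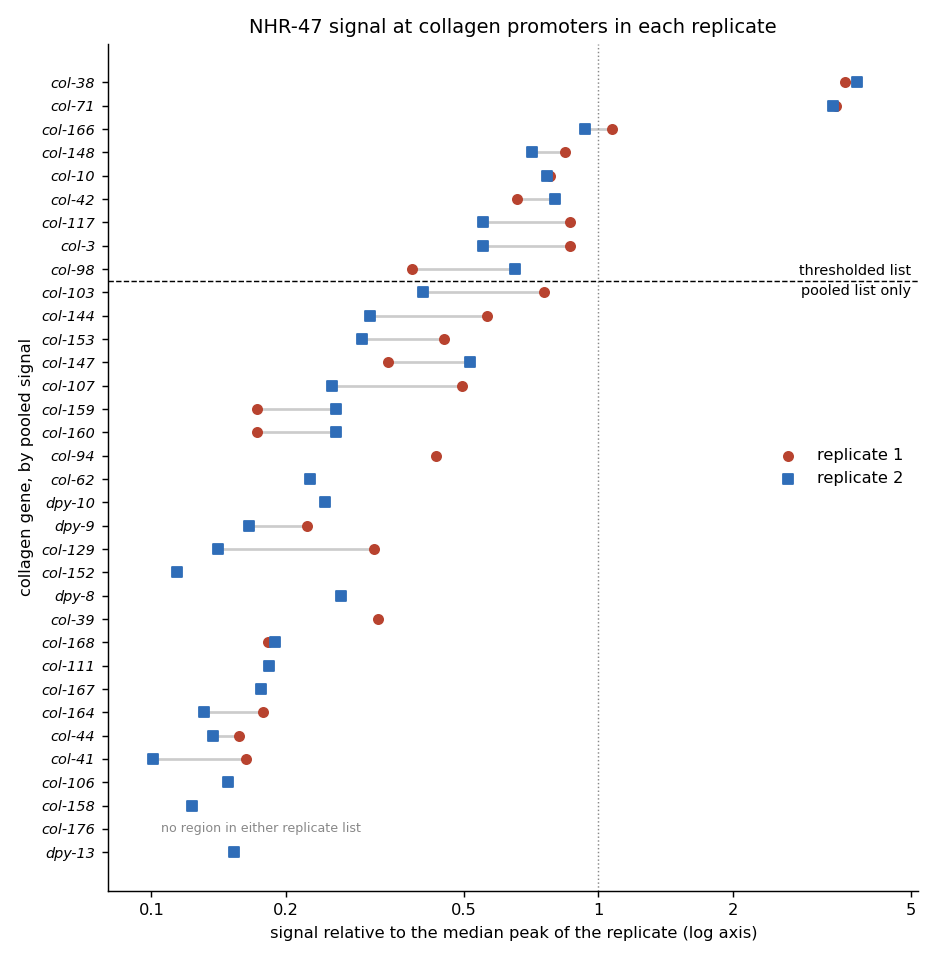
Signal of the strongest pooled region in the window of each of the 34 collagen genes that had one, divided by the median thresholded peak of the replicate (x axis, log scale), in replicate 1 (circles) and replicate 2 (squares). Genes run down by pooled signal, and the dashed line parts the 9 thresholded genes from the 25 below the threshold. The values of col-38 and col-71 lie between 3.35 and 3.78, and those of the other 32 genes at or below 1.07.

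Among the 12 named members, 4 had a pooled summit, all weak (33.3%, against 28.3% of all protein-coding genes), and 0 had a thresholded one, which allows a share of up to 25%. Of the 6 furrow collagens, dpy-10, dpy-9 and dpy-8 had one. The summit of dpy-10 was 338 bp upstream with a pooled signal of 25.5, and only replicate 2 had a region there, at a relative signal of 0.244. That summit was also 21 bp from the 5′ end of the noncoding RNA gene T14B4.14. At dpy-9 the summit was 435 bp upstream with a pooled signal of 24.8, and the relative signals were 0.223 in replicate 1 and 0.165 in replicate 2. At dpy-8 it was 333 bp upstream with a pooled signal of 22.9, and only replicate 2 had a region, at 0.265. All 3 lay below the pooled list's median signal of 29.6. Their deposited -log10 q values were low, at 0.556 for dpy-10, 0.524 for dpy-9 and 0.448 for dpy-8, so they may be background.

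The remaining named gene was dpy-13, a cuticle collagen whose mutants are short. Its summit had a pooled signal of 15.1 and lay 189 bp upstream, but 60 bp from the 5′ end of the divergent gene zipt-2.2, a zinc transporter. Only replicate 2 had a region there, at a relative signal of 0.153, and the -log10 q of the pooled region was 0.23. For dpy-2, dpy-3, dpy-7, rol-6, sqt-1, sqt-3, bli-1 and bli-2, neither the pooled nor either replicate list held a summit in the window. Their windows were at least 97.5% unique in 31-base words.

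Of the 25 members below the threshold, the strongest was col-103, with the summit 53 bp downstream of the 5′ end. Its relative signal was 0.755 in replicate 1 and 0.406 in replicate 2. Then came col-144, 39 bp downstream, at 0.564 in replicate 1 and 0.309 in replicate 2. The summit of col-153 was 266 bp upstream, at 0.452 and 0.296, that of col-147 was 57 bp upstream, at 0.339 and 0.517, and that of col-107 was 40 bp upstream, at 0.494 and 0.254 (replicate 1, then replicate 2). That of col-147 was also 21 bp from the 5′ end of the noncoding RNA gene T06E4.17. The genes col-159 and col-160, whose 5′ ends are so near that their windows overlap by 689 bp, shared 1 summit at 0.172 in replicate 1 and 0.259 in replicate 2. Next were col-94, with a region in replicate 1 only (0.433), and col-62, with a region in replicate 2 only (0.226). The summit of col-62 was 122 bp from the 5′ end of C15A11.7, and 48.0% of the words of the col-62 window were unique in the genome. The summit of col-129, 31 bp downstream, had relative signals of 0.314 in replicate 1 and 0.141 in replicate 2.

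Regions of both replicate lists overlapped 13 of these 25. The share among all genes with only summits below the threshold was not counted. Both lists overlapped all 9 thresholded ones, but the thresholded list was itself selected for reproducibility. Of its 5357 peaks, 5312 were found in both replicates. Replicate 1 had no region at 10 of the 25 and replicate 2 at 3, and col-176 had one in neither. Summits were upstream of the 5′ end at 17 and downstream at 8, and the same split over all genes was not counted. The 13 with both values had relative signals within 2-fold of each other at 12.

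**Figure D4:**
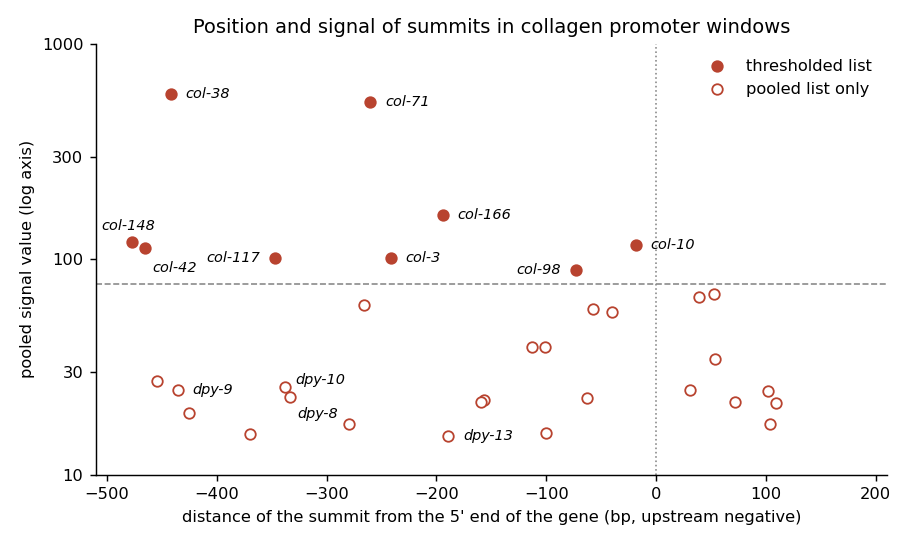
Distance of the strongest pooled summit in the window from the 5′ end of each of the 34 collagen genes (x axis, bp, upstream negative) against its pooled signal value (y axis, log scale). Filled points are in the thresholded list and open points only in the pooled list, and the dashed line is the lowest thresholded signal, 77.0. All 9 filled points lie upstream, and 8 of the 25 open points lie downstream, in a window of 500 bp upstream and 200 bp downstream.

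Collagen genes had a divergent partner (a protein-coding gene on the opposite strand whose 5′ end lay within 1000 bp upstream) in 20 of 168 cases (11.9%), against 17.7% of all protein-coding genes. Of the 20, 5 had a thresholded summit (25%), against 32.1% of all divergent genes. Of the other collagens, 4 had one (2.7%), against 8.7% of all genes without such a partner. Among the 5 divergent collagens with a summit, col-3 and col-117 share the same one. Neither difference was tested.

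By chromosome, thresholded summits were found at 0 of 21 members on I (17.3% of all genes there), 2 of 30 on II (11.4%), 1 of 12 on III (18.5%), 2 of 43 on IV (12.3%), 3 of 32 on V (9.09%) and 1 of 30 on X (12.2%). The count of 0 on I allows a share of up to 14.3%. On V, 10 of 32 members had a pooled summit (31.2%), against 21.9% of all genes there, and this was the only chromosome on which the collagens' pooled share was the higher one. On I, 1 of 21 members had one (4.76%), against 33.9%. The pooled counts were 4 of 30 on II (against 25.6%), 2 of 12 on III (36.3%), 9 of 43 on IV (26.2%) and 8 of 30 on X (32.4%).

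The promoter windows of collagens differed in letters from those of all genes, by counts alone. TATAAA stood on the gene's strand in the last 100 bp before the 5′ end of 79 of 168 collagens (47%), against 12.7% of all protein-coding genes. This sequence was chosen after the summit sequences had been seen. Of the 79 collagens with it, 5 had a thresholded summit (6.33%), against 8.39% of all genes with it. Of the 89 collagens without it, 4 had one (4.49%), against 13.5% of all genes without it. AGGTCA was in the whole window of 24.4% of collagens and 16.8% of all genes, AGATAA in 47.6% and 39.4%, but CACGTG in 5.36% and 12%. For AAGTCA the shares were 29.8% and 29.6%, and for GAGAGA 44.0% and 36.8%. The median GC content was 37.2% in collagen windows and 35.0% in all windows.

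At least 90% of the 31-base words were unique in 146 of 168 windows (86.9%), against 88.6% of all genes. Of the 9 collagens with a thresholded summit, 3 (col-3, col-117 and col-166) had a window under this level (33.3%), against 4.95% of all genes with a thresholded summit. Of the 146, 6 had a thresholded summit (4.11%), against 13.8% of all genes with such windows. How reads at repeated sequence were placed is not given in the sources used here.

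Beyond the window, stronger peaks lay near some collagens. Within 1000 bp of the 5′ end, 15 members had a thresholded summit (8.93%), against 17.2% of all protein-coding genes. Within 2000 bp it was 25 (14.9%), against 23.8%, and within 5000 bp 57 (33.9%), against 38.4%. The median distance to the nearest thresholded summit was 8809 bp for collagens and 8099 bp for all genes. Within 2000 bp but outside the windows lay 20 further summits at 18 members, and 2 of these summits were in the window of another protein-coding gene. Of the 20 summits, 5 lay within 50 bp of the 5′ end of an RNA gene that codes for no protein (25%), against 9.26% of all 5357 thresholded summits and 11.6% of those in no protein-coding window. That distance and the genes named for these summits were chosen after their values had been seen.

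The strongest lay 1780 bp upstream of col-94 and 26 bp from the 5′ end of the snRNA gene R07E5.16, at 9.67 ± 0.279 times the median peak (relative signal, SD, n = 2). The summit 1317 bp downstream of the 5′ end of col-181 (3.03 ± 0.437) was 28 bp from the 5′ end of a tRNA gene. A summit inside col-85 (2.31 ± 0.457) was 20 bp from that of a tRNA gene, and one 950 bp upstream of col-185 (1.86 ± 0.118) was 6 bp from that of another. The summit 653 bp upstream of col-63 (3.06 ± 0.178) was 6 bp from the 5′ end of the noncoding RNA gene ZK265.11. In contrast, the summit inside col-72, 461 bp downstream of its 5′ end (2.52 ± 0.0294), was 1837 bp from the nearest 5′ end of another gene.

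Among named members, a thresholded summit lay inside dpy-8, 260 bp downstream of its 5′ end and thus just past the window, and another 1119 bp upstream of it. The relative signals of the first were 0.839 in replicate 1 and 0.484 in replicate 2. The summit 1887 bp downstream of the 5′ end of dpy-9 was 114 bp from that of R02D3.8. Further summits were 1173 bp downstream of the 5′ end of dpy-3 and 1873 bp downstream of that of sqt-1. In all, 5 members had a thresholded summit inside the gene (2.98%), against 6.17% of all protein-coding genes.

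Genes that make, process or regulate cuticle collagens were then counted in the same way, against 12.8% for the thresholded and 28.3% for the pooled list over all protein-coding genes. Of 22 processing and cross-linking genes, 2 had a thresholded summit (9.09%) and 6 a pooled one (27.3%). These were pdi-2, which encodes a protein disulfide isomerase of the collagen prolyl hydroxylase (1.26 in replicate 1 and 2.36 in replicate 2), and bli-4, a proprotein convertase (0.638 in replicate 1 and 0.807 in replicate 2). Of 15 transcription regulators, 2 had a thresholded summit (13.3%) and 7 a pooled one (46.7%). At myrf-1, a regulator of molting, the relative signal was 2.64 in replicate 1 and 2.72 in replicate 2. At nhr-25, a nuclear receptor needed for molting, it was 0.606 in replicate 1 and 1.05 in replicate 2. The molting regulator nhr-23 had a region below the threshold, at 0.388 in replicate 1 and 0.379 in replicate 2.

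Of 8 further named cuticle collagens outside the group (dpy-4, dpy-5, dpy-14, dpy-17, lon-3, rol-8, bli-6 and sqt-2), 1 had a thresholded summit (12.5%) and 4 a pooled one. This was bli-6, at 2.78 in replicate 1 and 2.44 in replicate 2, whose summit also lay in the window of hrpf-2. No thresholded summit was found at 35 cuticlin genes, which allows a share of up to 8.57%, or at 18 molting genes, which allows up to 16.7%. A pooled summit was found at 3 cuticlin genes (8.57%) and 4 molting genes (22.2%), against 28.3% of all protein-coding genes. The 4 other collagens tested, emb-9, let-2, cle-1 and mec-5, also had 0, and let-2, a basement membrane collagen, had a region below the threshold at 0.289 in replicate 1 and 0.13 in replicate 2.

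The share of collagens was below that of all protein-coding genes under each of the following settings. With 300 bp before and 100 bp after the 5′ end, 5 members had a thresholded summit, against 9.77% of all protein-coding genes. Giving each summit to 1 gene, that of the nearest 5′ end, also left 5 (against 10.2%). By overlap of the whole region 11 had one (against 14.3%), and with the 5′ end of every annotated transcript 9 did (against 13.9%). With 1000 bp before the 5′ end there were 12 (against 15.9%), and among the 2678 peaks of highest signal there were 3 (against 8.46%), namely col-38, col-71 and col-166. Counting summits in the window of no other protein-coding gene, a setting chosen after seeing the data, left 4 (against 7.62%).

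**Figure D5:**
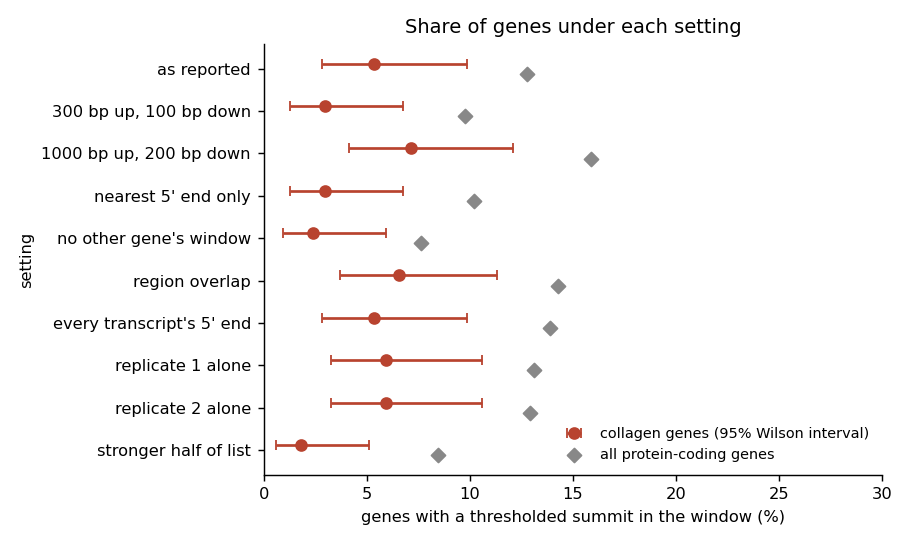
Percentage of genes with a thresholded summit (x axis) for the 168 collagen genes (circles, with 95% Wilson intervals) and all 19973 protein-coding genes (diamonds) under each way of placing summits or limiting the list (y axis). The collagen share runs from 1.79% to 7.14%, and that of all genes from 7.62% to 15.9%.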

How the data were processed

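Members were all protein-coding genes that the stated symbols name in the Ensembl release 115 annotation of WBcel235 (ce11). The members, gene lists and tests were chosen with earlier results of these data known, so no test is given for a list. The motifs TATAAA, then TTAGGC, plus the summits outside windows were added after values had been seen.

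Per the submitters' file index, the authors derived region lists for each replicate and for both pooled from the alignments and a further file that the index does not describe, as input for the irreproducible discovery rate, and deposited a list thresholded by the optimal rule. As to aligner, caller, versions and cutoff, these were not given in the sources used here. The deposited signal values (column 7) are the caller's, with a normalization not stated there. The deposited -log10 q values (column 9) were not used for calls. Column 10 as deposited, of another kind, gives the summit's offset. The ce10 lists were not used.

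A replicate value was the signal of the overlapping region (at least 1 bp) of nearest summit, divided by the median over the 5312 peaks found in both replicates (66.8 in replicate 1 and 92.2 in replicate 2). Shares have 95% Wilson intervals, and a count of 0 allows 3 counts of the total. Uniqueness was counted in 31-base words on both strands. Named genes were all members with a thresholded summit, the 12 named members, the 10 other members with the strongest pooled summit, genes sharing or nearest to those summits, and listed pathway genes with a thresholded summit. Others were named after their values had been seen. There were 0 unused per-sample columns. Assignment was tested on simulated data. Python 3.11.15, numpy 2.4.6, pandas 2.3.3, scipy 1.17.1 and matplotlib 3.10.9 were used.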

Additional observations from a re-analysis of the deposited data

How the results depend on the processing

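With only 2 replicates, no control group analysed here and depth unknown, the counts describe these lists and carry no test. The 9 members with a thresholded summit became 5 in the narrow window of 300 bp before and 100 bp after the 5′ end (9.77% of all genes), and also 5 if a summit counted only for the gene of the nearest 5′ end (10.2%). Of these, col-71 was kept only in the first and col-42 only in the second. They became 3 among the 2678 peaks of highest signal (8.46%) and, in a setting chosen after seeing the data, 4 with summits in the window of no other protein-coding gene (7.62%). Each replicate alone gave 10 members, but 7 of the 9 were shared in replicate 1 and 9 in replicate 2. The 34 members with a pooled summit became 21 in the narrow window (21.0% of all genes), 17 among the 15000 regions of highest signal (21.2%), 33 without replicate 1 (30 shared) and 31 without replicate 2 (22 shared). The other settings left both counts within 1.5 times. For the 9 single signals, leaving out either of 2 replicates cannot move the mean by 1 SD, so this says nothing of stability. With the pooled signal, those of col-71 (3.43) and col-10 (0.748) moved by more than 1 SD, and the other 7 by less. Divided by the median of all regions of the replicate's list instead, all 9 moved by more than 1 SD. They then ran from 2.45 at col-98 to 17.1 at col-38, so their size depends on the chosen median. No paired analysis was possible because there is 1 group.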

Other observations

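The gene col-2 had a region in replicate 1 alone, from 10085847 to 10085945 on IV, 427 bp upstream of its 5′ end. Its signal was 1.73 times the replicate's median peak and ranked 1471 in that list, yet neither replicate 2 nor the pooled list held a region there. The region was 99 bp wide, against a median of 396 bp in replicate 1, whose list held 27 regions narrower than 100 bp. Replicate 2 held 0 of them. In total, 12 members had a summit in a replicate list and none in the pooled list, 9 in replicate 1 and 3 in replicate 2. Apart from col-2, their relative signals reached 0.251 at most.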
